A study of Homo sapiens with 9 samples.

Results

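The comparison described here is that of THP-1 cells given LPS together with ABS against THP-1 cells given PBS. Its members are 6 of the 9 libraries of the series, the 3 whose label reads PMA, LPS and ABS and the 3 whose label reads PMA and PBS, chosen by their treatment label. THP-1 is an established human monocytic leukaemia line, labelled WT. All cells, controls included, had received PMA, a phorbol ester under which the line adheres and takes on macrophage features. LPS is lipopolysaccharide from the outer membrane of Gram-negative bacteria. ABS is not spelled out in the labels, and the title of the series speaks of apoptotic bodies made by cells in hydrogel microspheres. Neither dose nor duration is stated for any agent. The treated group differed from control in both LPS and ABS, and no group given ABS without LPS was analysed here. The values of the 3 libraries given PMA and LPS are therefore printed beside the comparison for some genes and lists. Where they are left out, the gene may have changed with LPS alone as well. The LPS values do not separate the agents, because each contrast shares libraries with the next. Whether the 3 libraries of a group stem from separate cultures is not labelled. All p-values therefore speak of the spread between these libraries, which may be technical.

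LPS is sensed by CD14, MD-2 and TLR4. One signalling arm acts through MYD88 and NF-kB on cytokine genes, and the other acts through TICAM1 and IRF3 on type I interferon and, through the complex that holds STAT2, on interferon-stimulated genes. Apoptotic bodies are membrane-bound fragments of dying cells. Macrophages bind them through phosphatidylserine receptors and bridging proteins, digest them in lysosomes and export the cholesterol they bring through LXR target transporters such as ABCA1. That uptake is known in other settings for lowering inflammatory cytokine output. ATF4 is the transcription factor made when translation is slowed through phosphorylation of eIF2, as under shortage of amino acids or stress of the endoplasmic reticulum, and it drives genes of amino acid transport and synthesis.

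Counts were tested in 2 ways, and every change was read in both. The uncorrected fit took the deposited counts as they were. The GC-corrected fit removed, within each library, the smooth trend of log counts with the GC content of the gene's transcript. Calls rest on a Benjamini-Hochberg adjusted p under 0.05 from edgeR's quasi-likelihood test, and "rose" or "fell" below is written of genes called with the same sign in both fits. Levels are CPM, counts scaled to library size, after TMM normalization. Fold changes are log2 of LPS with ABS over control, with their standard error, and where a pair of values is given the first is uncorrected and the second GC-corrected.

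Total counts of the 9 libraries ranged from 38506162 to 41679412, and 12970 genes were tested. The common coefficient of variation between libraries was 18.4% before and 16.1% after the correction. Of 28 monocyte and macrophage identity genes, 24 were at or above 1 FPKM on average in each group. Summed over the 28, their level was 2145 to 2302 FPKM in control and 2612 to 2989 with LPS and ABS. Markers of T cells and of chondrocytes summed to at most 0.142 FPKM in every library. Of the T cell markers, CD2, CD5 and CD8A were measured, and the CD3 subunits were not analysed here. Of 9 chondrocyte markers listed, 5 were measured. Fibroblast markers summed to 12.3 to 14.0 FPKM in control and 10.7 to 13.6 with LPS and ABS, most of it TWIST1. B cell markers summed to 4.30 to 5.78 and 3.67 to 6.52, with CD79B the highest. Epithelial markers reached at most 2.255 FPKM in any library, and erythroid and platelet markers 1.062. Endothelial markers summed to 35.3 to 38.0 FPKM in control and 29.8 to 43.1 with LPS and ABS, nearly all of it PECAM1, which monocytes also express. In bulk RNA, fewer cells of a type and less RNA per cell cannot be told apart.

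A pair of properties of the libraries given LPS and ABS touch every result below. The first is their trend with GC content. Per 10 percentage points of transcript GC, log2 counts relative to the mean of all libraries rose by 0.225, 0.326 and 0.371 in the 3 libraries given LPS and ABS. In the control libraries the slopes were -0.173, -0.156 and -0.142, and in the LPS libraries -0.307, -0.024 and -0.121. Because slopes are relative to the mean of all libraries, those below 0 follow in part from those above 0. No control or LPS library had a slope above 0, and the lowest of the treated group lay above all of them. Since every library of the group carried the trend, the trend and the treatment cannot be told apart. The labels name TruSeq and VAHTS library kits without saying which library had which. A kit or preparation particular to the group therefore cannot be told apart from them either. The second is replicate 3 of the treated group (LPS_ABS 3). Its log2 CPM correlated with the other two at 0.968 and 0.975, against 0.978 between those 2 and 0.983 to 0.986 within control.

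Before the correction 4388 of 12970 genes were called (33.8%), 1920 higher (14.8%) and 2468 lower (19%) in LPS with ABS. After it 1688 were called (13%), 1032 higher (7.96%) and 656 lower (5.06%). Both fits called 1101 genes with the same sign (8.49%), 630 higher (4.86%) and 471 lower (3.63%), and the fits called 0 genes with opposite signs. Of the calls before the correction, 25.1% were kept. Of the 1101, 256 differed at least 2-fold in both fits, 216 higher and 40 lower. The median over all genes was 0.05 uncorrected and 0.02 GC-corrected. Scaling by total counts alone moved the uncorrected median to -0.08 and turned the split of the uncorrected calls from 1920 higher and 2468 lower to 1192 and 3271. The corrected split was 1028 and 658 under that scaling. It could hardly change, because the trend removed from each library also holds that library's overall level. In 20.8% of genes (2700) the 3 libraries of each group did not overlap in CPM, both before and after the correction. The number called in both fits was 413 without control 1, 469 without control 2, 672 without control 3 and 460 without LPS_ABS 2. It was 1423 without LPS_ABS 1 and 1763 without LPS_ABS 3. In each of these 6 runs 341 of the 1101 genes (31.0%) were called again with the same sign, 243 higher and 98 lower.

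The trend ordered the calls by base composition. In the lowest of 5 equal bins of transcript GC (30.2 to 41.3%) the uncorrected fit called 21 genes higher and 1425 lower, with a median of -0.66. In the highest bin (58.9 to 76.8%) it called 775 higher and 4 lower, with a median of 0.40. After the correction the same bins held 221 higher and 149 lower, and 143 higher and 78 lower. Calls made in both fits kept part of the order by GC. They were 21 higher and 149 lower in the lowest bin, and 143 higher and 4 lower in the highest. The correction ended 3287 calls, 1290 higher and 1997 lower, whose median size went from 0.67 to 0.23 while the median standard error went from 0.17 to 0.14. In 452 of them the sign turned. Another 587 genes were called only after it, 402 higher and 185 lower.

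**Figure D1:**
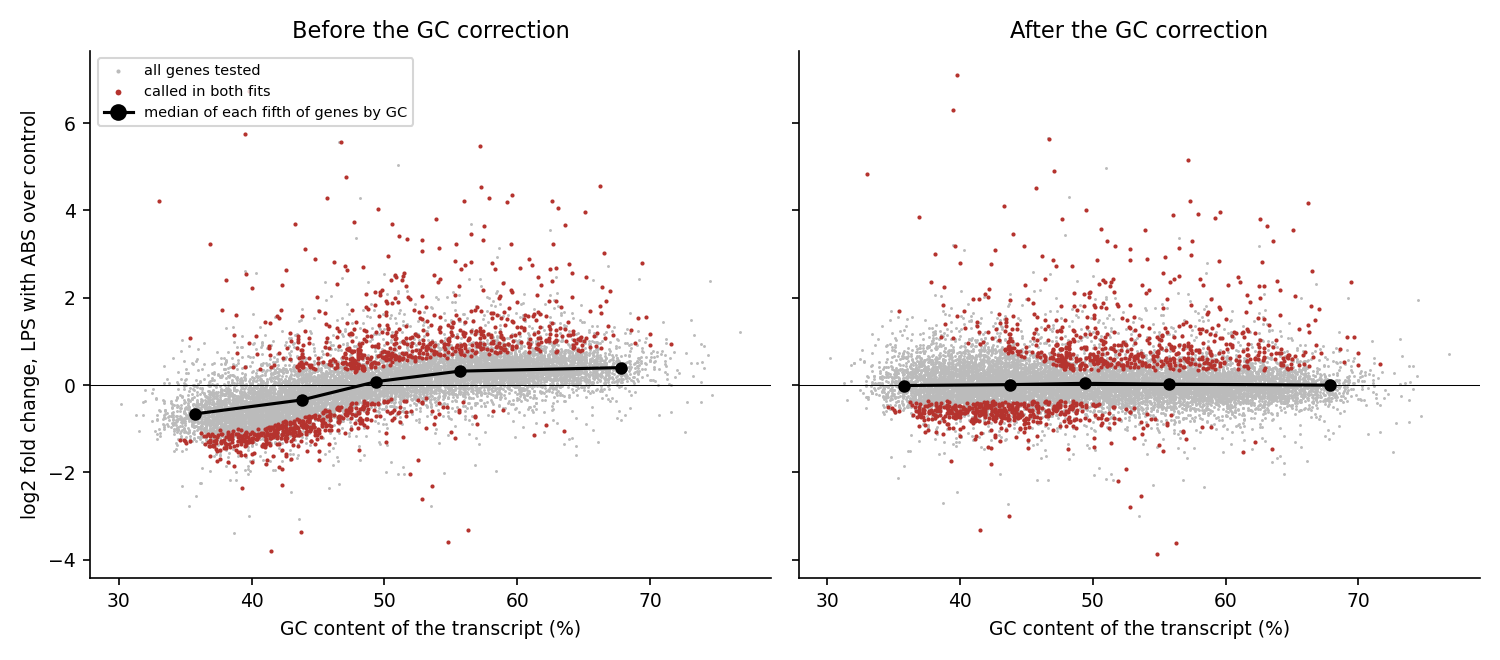
Log2 fold change of LPS with ABS over control for the genes tested, against the GC content of the transcript in percent, before (left) and after (right) the GC correction. Grey points are genes tested, red points the genes called in both fits, and black points the medians of the 5 GC bins. On the left the medians climb from -0.66 to 0.40, and on the right they stay between -0.01 and 0.04.

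TNRC18 and G2E3 show the ends of that range. TNRC18, on chromosome 7, is named for trinucleotide repeats in its sequence, and its transcript has 67.1% GC. G2E3, on chromosome 14, encodes a ubiquitin ligase, and its transcript has 32.9% GC. The first 120 coding bases of each, from the GENCODE 29 transcripts, are printed with G and C in capitals, which fill 76.7% and 36.7% of the stretch.
TNRC18: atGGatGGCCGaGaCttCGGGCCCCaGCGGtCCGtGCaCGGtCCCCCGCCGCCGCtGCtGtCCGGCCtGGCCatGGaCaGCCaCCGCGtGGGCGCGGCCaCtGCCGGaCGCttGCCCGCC
G2E3: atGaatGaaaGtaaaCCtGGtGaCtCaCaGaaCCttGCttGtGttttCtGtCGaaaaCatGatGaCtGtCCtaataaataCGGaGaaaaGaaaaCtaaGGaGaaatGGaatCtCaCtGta
TNRC18 lay at 342, 526 and 614 CPM with LPS and ABS and at 178, 154 and 297 in control. The groups were apart, with log2 fold change 1.24 ± 0.29 (adjusted p = 0.00747), and the GC-corrected value was 0.82 ± 0.26 (adjusted p = 0.0548). G2E3 lay at 7.87, 4.5 and 4.41 against 9.92, 9.5 and 9.2, all treated libraries below all controls, and went from -0.77 ± 0.22 (adjusted p = 0.0192) to 0.01 ± 0.18 (adjusted p = 0.975). The largest other uncorrected rises that ended were TMPRSS9, GLYCTK and NT5M, at 1.35, 1.33 and 1.23 before and 0.93, 0.93 and 0.80 after the correction. Their transcripts held 65.6%, 61.9% and 65.4% GC. The largest falls that ended were VAMP7 (-3.40 and -2.69), U2AF1L5 (-1.84 and -1.66), MEIOC (-1.62 and -0.89) and ARRDC3 (-1.61 and -0.97). VAMP7 and U2AF1L5 have near-identical copies in the genome, and their control values spread from 0.861 to 7.79 and from 3.98 to 18.3 CPM, so both are uncertain. ABHD13, ATG4C and LRRC40, with 34.1%, 34.8% and 35.1% GC, went from -0.79, -0.77 and -0.77 to 0.04, 0.02 and 0.00.

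Some genes moved against the trend. In the lowest GC bin 21 genes rose in both fits, 16 of them with a mean of at least 100 counts in the higher group, and in the highest bin 4 genes fell. The genes named here were picked after their values were seen. BTG1, which restrains cell proliferation, has 38.7% GC and went from 33.1, 31.5 and 32.9 CPM in control to 64, 84.7 and 66 with LPS and ABS. Its log2 fold change was 1.14 ± 0.14 uncorrected and 1.84 ± 0.17 GC-corrected (adjusted p = 0.000351 and 7.31e-05). TUBE1, which encodes epsilon tubulin, went from 14.8, 15.3 and 12.8 to 53.2, 55.5 and 22.6, and in the treated group replicate 3 was the lowest. It gave 1.61 ± 0.26 uncorrected and 2.26 ± 0.22 GC-corrected (adjusted p = 0.00161 and 9.10e-05). Both genes were also high with LPS alone, BTG1 at 67.1, 63.3 and 61.7 CPM and TUBE1 at 57, 49.8 and 53.5. The 4 fallers of high GC were CSPG4, MYBPH, NT5DC2 and SLC6A8. NT5DC2 went from 78.9, 78.7 and 71.7 to 52.1, 38.9 and 62.5 CPM (-0.58 and -0.95), and was not called in both fits without control 1, control 2, control 3 or LPS_ABS 2 (largest adjusted p 0.101). NT5DC2 lay at 26.2, 38.5 and 32.3 CPM with LPS alone.

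By rule (largest corrected change among genes called in both fits, groups apart, a mean of at least 100 counts in the higher group), the 10 largest rises were CTH, SLC6A9, NLRP12, SPTB, CHAC1, ADM2, INHBE, TM6SF1, C5AR1 and SCN4A. CTH makes cysteine from cystathionine. It stood at 1.94, 1.68 and 1.11 CPM in the control libraries and at 28.4, 25.5 and 7.39 with LPS and ABS, and at 15.5, 15.4 and 17.7 with LPS alone. All treated libraries lay above all controls, and LPS_ABS 3 was the lowest of its group. Its log2 fold change was 3.69 ± 0.42 uncorrected and 4.10 ± 0.42 GC-corrected (adjusted p = 0.000288 and 0.000132). SLC6A9, a glycine transporter, went from 2.52, 1.47 and 0.689 to 44.2, 39.8 and 11.4, and lay at 23.3, 40.2 and 32.1 with LPS. It gave 4.34 ± 0.52 uncorrected and 3.96 ± 0.48 GC-corrected (adjusted p = 0.000379 and 0.000294). NLRP12, a NOD-like receptor known to restrain inflammatory signalling, went from 3.5, 2.09 and 1.7 to 64.1, 57.9 and 20.7, with 18.9, 35.8 and 29.9 under LPS. It gave 4.29 ± 0.43 uncorrected and 3.93 ± 0.39 GC-corrected (adjusted p = 0.000213 and 9.10e-05). C5AR1, the receptor for the complement fragment C5a, went from 2.92, 2.09 and 2.85 to 32.3, 36 and 16.4, with 16.6, 20.2 and 22.9 under LPS. It gave 3.43 ± 0.29 uncorrected and 3.31 ± 0.29 GC-corrected (adjusted p = 7.90e-05 and 5.15e-05). SPTB (a beta spectrin of the membrane skeleton), TM6SF1 and SCN4A (a voltage-gated sodium channel) stayed at or below 19.6 CPM in every library and gave GC-corrected values of 3.82 ± 0.51, 3.47 ± 0.40 and 3.29 ± 0.58. All 10 kept their call in both fits when any 1 of the 6 libraries was left out, and in each LPS_ABS 3 was the lowest treated library.

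The 10 largest falls were TBC1D30, ZNF823, MYBPH, CSPG4, ZNF114, ALG11, KIF21A, ENO2, BNIP3 and SLC6A8. TBC1D30, which encodes a protein of the family that switches off Rab GTPases, went from 17.7, 19.1 and 15 CPM in control to 2.8, 0.889 and 1.36, with 1.72, 0.908 and 0.849 under LPS. Its groups were far apart: -3.36 ± 0.37 uncorrected and -3.01 ± 0.33 GC-corrected (adjusted p = 0.000274 and 0.000222). MYBPH, a myosin-binding protein, went from 121, 125 and 112 to 57.8, 46.4 and 58.2 and lay between, at 59.4, 86.3 and 78.4, with LPS. It gave -1.14 ± 0.15 uncorrected and -1.54 ± 0.11 GC-corrected (adjusted p = 0.000653 and 1.37e-05). CSPG4, a cell surface chondroitin sulfate proteoglycan, went from 63.9, 64 and 64.8 to 34.3, 24.8 and 33.4 (-1.06 ± 0.19 uncorrected and -1.47 ± 0.14 GC-corrected, adjusted p = 0.00231 and 9.10e-05). SLC6A8 imports creatine, and it went from 68.2, 63.7 and 58.2 to 41.4, 28.5 and 31.5 (-0.91 ± 0.20 uncorrected and -1.31 ± 0.15 GC-corrected, adjusted p = 0.00640 and 0.000225). CSPG4 lay at 20.1, 32.1 and 20.3 CPM with LPS alone, and SLC6A8 at 16.3, 28.3 and 18.6. BNIP3, a mitochondrial protein of the hypoxia response, went from 79.6, 71.1 and 77.3 to 36.3, 34 and 29.4 (-1.19 ± 0.15 uncorrected and -1.34 ± 0.16 GC-corrected, adjusted p = 0.000493 and 0.000264). The zinc finger genes ZNF823 and ZNF114 fell by 1.81 and 1.46 on the corrected log2 scale. ALG11 (-1.71 and -1.45), KIF21A (-1.88 and -1.42) and ENO2 (-1.09 and -1.38) were less firm. ALG11 was not called in both fits without control 1 or LPS_ABS 2 (largest adjusted p 0.0960), KIF21A not without LPS_ABS 2 (largest adjusted p 0.0700), and ENO2 not without control 1, control 2, control 3, LPS_ABS 2 or LPS_ABS 3 (largest adjusted p 0.113).

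The gene lists were chosen with earlier results of these data known, so their shares beside a background are descriptive and not a test. Of the lists described, the ATF4 stress response held the largest share of risers. Of 37 members tested, 36 rose, against a background of 4.86% of all genes called higher in both fits, and 32 of the 36 were called again in every run that left out 1 library. The list's median log2 fold change was 2.18 uncorrected and 2.10 GC-corrected, against 0.05 and 0.02 over all genes. Its median transcript GC was 53.5%. VLDLR, a lipoprotein receptor, was the member outside the count, at 178, 180.4 and 175 CPM in control and 172, 179 and 220.4 with LPS and ABS, and was called only after the correction (0.10 and 0.55). FGF21 had too few counts to be tested. With LPS alone 36 of the 37 rose too (background 7.7%, and 14.6% in either direction). Set directly against LPS, the libraries given LPS and ABS were higher in 1 of the 37 and lower in 1 in both fits (backgrounds 3.01% and 2.93%), with medians of -0.06 and -0.14.

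ATF4 itself stood at 493, 483 and 487 CPM in control, at 1636, 1539.5 and 1639 with LPS and at 1549, 1496 and 1003 with LPS and ABS. The treated libraries were all above control, with log2 fold change 1.47 ± 0.15 uncorrected and 1.14 ± 0.15 GC-corrected (adjusted p = 0.000200 and 0.000747). ATF3 and JDP2, partner factors of the same bZIP family, rose as well. ATF3 went from 4.1, 3.13 and 2.83 to 14, 16 and 9.86 (1.99 and 1.87), and JDP2 from 22.9, 21 and 18.9 to 147, 139 and 88.7 (2.57 and 2.43). CEBPB, a bZIP factor that is also a marker of the monocytic lineage, went from 47.8, 48.8 and 41.3 to 187, 184 and 113 (1.81 and 1.39). Among target genes, CHAC1 degrades glutathione. It had 14.4, 9.48 and 7.23 CPM in control, 105, 135 and 166 with LPS and 256, 198 and 123 with LPS and ABS, the groups far apart (4.21 ± 0.32 uncorrected and 3.80 ± 0.28 GC-corrected, adjusted p = 3.92e-05 and 1.37e-05). SESN2, which signals leucine shortage to mTORC1, went from 24.5, 18.8 and 17.7 to 228, 213 and 129 (3.22 ± 0.26 uncorrected and 2.84 ± 0.21 GC-corrected, adjusted p = 6.23e-05 and 1.37e-05). SLC7A5, a subunit of a transporter of bulky neutral amino acids, went from 182, 153 and 149 to 1269.9, 1261 and 727 (2.75 ± 0.25 uncorrected and 2.36 ± 0.20 GC-corrected, adjusted p = 0.000124 and 4.54e-05). SLC7A1 imports arginine and lysine. It stood at 167, 179.7 and 193 in control, 245, 352 and 316 with LPS and 469, 586 and 510.3 with LPS and ABS, and with VLDLR it was 1 of 2 members in which LPS_ABS 3 was not the lowest of its group (1.54 ± 0.15 uncorrected and 1.33 ± 0.13 GC-corrected, adjusted p = 0.000171 and 8.05e-05). Its corrected difference from LPS was 0.56 ± 0.12 (adjusted p = 0.0192). The secreted factors ADM2, INHBE and GDF15 rose by 3.64, 3.54 and 2.28 on the corrected scale. GDF15 stood at 12.1, 12.1 and 2.39 CPM with LPS and ABS against 1.68, 1.24 and 1.23 in control.

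Within the treated group the list was uneven. LPS_ABS 3 was the lowest of the 3 libraries in 35 of the 37 members (94.6%), where it was lowest in 417 of the 630 risers (66.2%) and in 38.5% of all genes tested. The median ratio of LPS_ABS 3 to the mean of the other 2 was 0.474 in the list, 0.812 over the risers and 0.97 over all genes, and after the GC correction 0.479, 0.782 and 0.991. Without LPS_ABS 3 all 36 were called, and without LPS_ABS 2, which leaves LPS_ABS 3 as 1 of 2, 32 were called. What set LPS_ABS 3 apart was not tested.

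**Figure D2:**
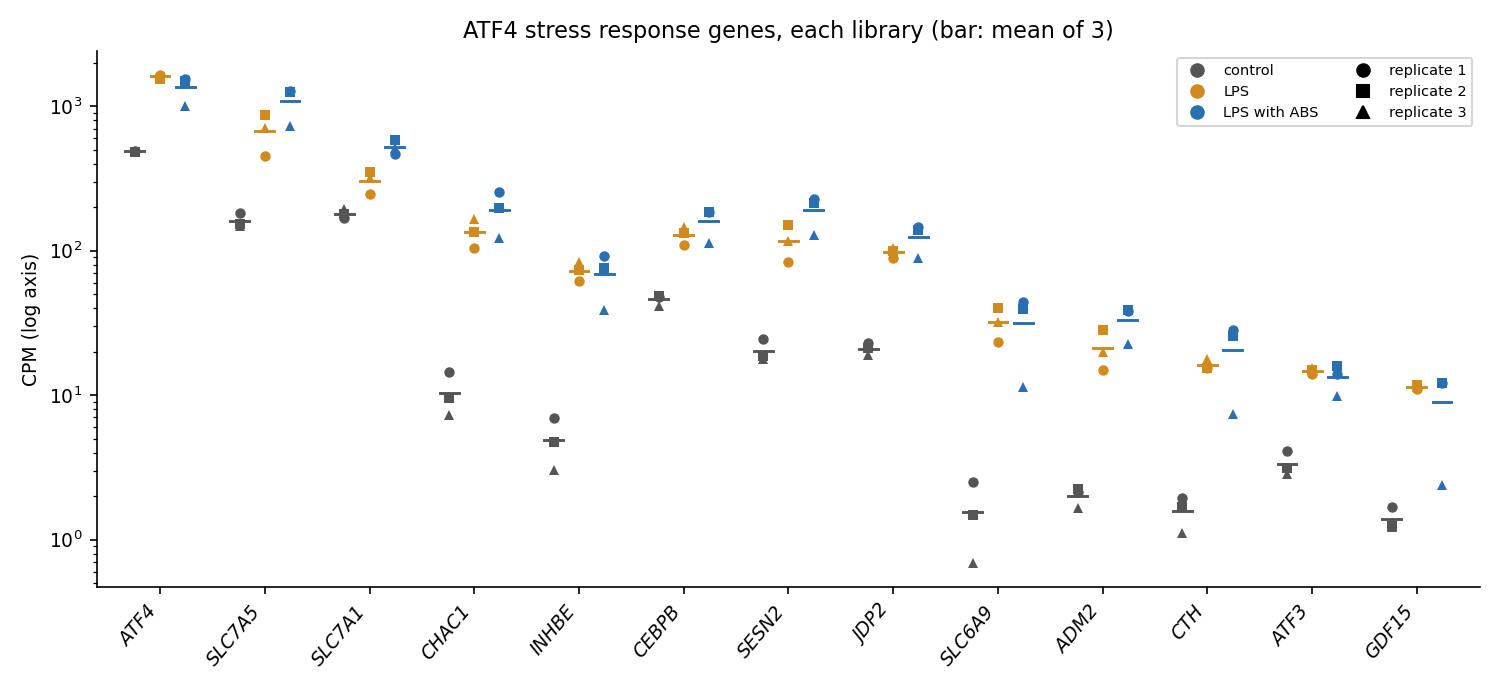
CPM on a log axis of 13 genes of the ATF4 list in each of the 9 libraries, coloured by group and shaped by replicate number, with a bar at each group's mean. The libraries given LPS with ABS lie above the control libraries in each gene, and their replicate 3 (triangle) sits lowest in all but SLC7A1.

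The promoters of this list were searched for the letters TGATGNAAN, the form in which ATF4 is known to bind beside a C/EBP factor, on both strands of the 250 bases before each gene's start in RefSeq (GRCh38.p14). Of 31 members with a window, 6 held a match (19.4%), namely ATF3, CHAC1, ASNS, AARS1, GARS1 and JDP2, against 2.45% of 10615 windows of genes tested and 3.13% of all 35116 windows. The list was drawn up around ATF4, so a higher share may be built into it. The share does not show whether ATF4 acted in these libraries. All 6 members with a match rose, and the windows of 3 of them, CHAC1, ASNS and ATF3, are printed as examples. They lie at chr15:40953221-40953470 (plus strand), chr7:97872409-97872658 (minus strand) and chr1:212565157-212565406 (plus strand), and capitals mark the match, which in CHAC1 is read on the opposite strand.
CHAC1: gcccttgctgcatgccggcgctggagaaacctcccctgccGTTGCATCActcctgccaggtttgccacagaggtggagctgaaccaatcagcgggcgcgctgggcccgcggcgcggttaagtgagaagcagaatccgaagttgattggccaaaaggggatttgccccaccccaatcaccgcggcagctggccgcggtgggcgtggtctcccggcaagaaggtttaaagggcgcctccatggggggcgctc
ASNS: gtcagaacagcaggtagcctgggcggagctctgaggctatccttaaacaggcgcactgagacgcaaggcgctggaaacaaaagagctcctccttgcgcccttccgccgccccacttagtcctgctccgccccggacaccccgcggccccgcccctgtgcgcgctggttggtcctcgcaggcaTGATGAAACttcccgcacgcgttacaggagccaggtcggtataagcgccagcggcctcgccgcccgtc
ATF3: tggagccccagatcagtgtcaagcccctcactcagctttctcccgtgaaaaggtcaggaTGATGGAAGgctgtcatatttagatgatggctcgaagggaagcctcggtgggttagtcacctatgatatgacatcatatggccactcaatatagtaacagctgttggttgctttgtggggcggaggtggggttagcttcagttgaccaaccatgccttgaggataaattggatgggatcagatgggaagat
ASNS, which makes asparagine and was chosen for printing after its values were seen, stood at 45, 35.1 and 28 CPM in control, at 405, 326 and 348 with LPS and at 283, 349 and 83.6 with LPS and ABS (2.73 ± 0.39 uncorrected and 2.86 ± 0.41 GC-corrected, adjusted p = 0.000887 and 0.00104). The match begins at base -210 in CHAC1, -68 in ASNS and -191 in ATF3, counted back from the start. Of the 37 members tested 36 rose, so the match does not set risers apart. SESN2 and ADM2 are among those that rose without a match.

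Interferon-stimulated genes were raised in part. Of 38 members of the type I interferon list, 14 rose and 0 fell, against backgrounds of 4.86% and 3.63%. Median log2 fold changes were 0.46 and 0.60. With LPS alone 37 of the 38 rose in both fits (background 7.7%), with medians of 1.48 and 1.52. Compared directly with LPS, the group given LPS and ABS was lower in 27 of the 38 in both fits (background 2.93%) and higher in 0, with medians of -0.89 and -0.94. Over all genes that contrast called 5.94% in both fits (3.01% higher, 2.93% lower) and 9.26% after the correction (5.03% higher, 4.23% lower).

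IFI27 and IFI6 encode small proteins strongly induced by interferon. IFI27 stood at 100.1, 78.6 and 94.1 CPM in control, 393, 393 and 591 with LPS and 371, 258 and 226 with LPS and ABS, and no treated library overlapped control (1.65 ± 0.21 uncorrected and 1.28 ± 0.19 GC-corrected, adjusted p = 0.000491 and 0.00125). Its corrected difference from LPS was -1.08 ± 0.19 (adjusted p = 0.00877). IFI6 stood at 119, 92 and 95.2 CPM in control, 342, 373 and 584 with LPS and 355, 241 and 232 with LPS and ABS (1.44 ± 0.22 uncorrected and 1.11 ± 0.20 GC-corrected, adjusted p = 0.00110 and 0.00399). MX1, a GTPase that blocks viral nucleocapsids, stood at 111, 97.3 and 99.3 CPM in control, 318, 360.2 and 514 with LPS and 278, 203 and 195 with LPS and ABS (1.14 ± 0.18 uncorrected and 0.95 ± 0.18 GC-corrected, adjusted p = 0.00153 and 0.00559). OAS2, which makes the second messenger that activates RNase L, stood at 166, 140.1 and 175 CPM in control, 377, 396 and 533 with LPS and 282, 244 and 258 with LPS and ABS (0.70 ± 0.15 uncorrected and 0.81 ± 0.15 GC-corrected, adjusted p = 0.00450 and 0.00477). EPSTI1 stood at 14.5, 13.5 and 13.6 CPM in control, 54.5, 53.3 and 76.7 with LPS and 32, 25.2 and 17.3 with LPS and ABS (0.84 ± 0.21 uncorrected and 1.23 ± 0.21 GC-corrected, adjusted p = 0.0108 and 0.00284). STAT2, the part of the interferon-activated complex ISGF3 that carries its activation domain, stood at 81.5, 79.2 and 64.6 CPM in control, 154, 192 and 230.1 with LPS and 166, 169 and 137 with LPS and ABS (1.07 ± 0.16 uncorrected and 0.91 ± 0.16 GC-corrected, adjusted p = 0.00107 and 0.00339), and its difference from LPS, -0.46 ± 0.16 after correction, was not called. These 6 held in each run that left out 1 library.

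IFI44L, picked after its values were seen, shows a member that did not pass. It ran at 14, 11.2 and 7.11 CPM in control, 49.5, 55.2 and 86.7 with LPS and 22.8, 6.65 and 7.66 with LPS and ABS. LPS_ABS 1 stood above every control, while LPS_ABS 2 and 3 overlapped them (0.20 ± 0.41 uncorrected and 0.81 ± 0.33 GC-corrected, adjusted p = 0.722 and 0.122). The pattern was general: LPS_ABS 1 was the highest of its group in 35 of the 38 members, where over all genes it was highest in 5846 of 12970. LPS_ABS 3 was the lowest in 26 of the 38. The number of risers was 8 without LPS_ABS 1, 8 without LPS_ABS 2, 17 without LPS_ABS 3, and 8, 7 and 8 without control 1, 2 and 3. The 7 members called in every run were the 6 above and IRF7.

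**Figure D3:**
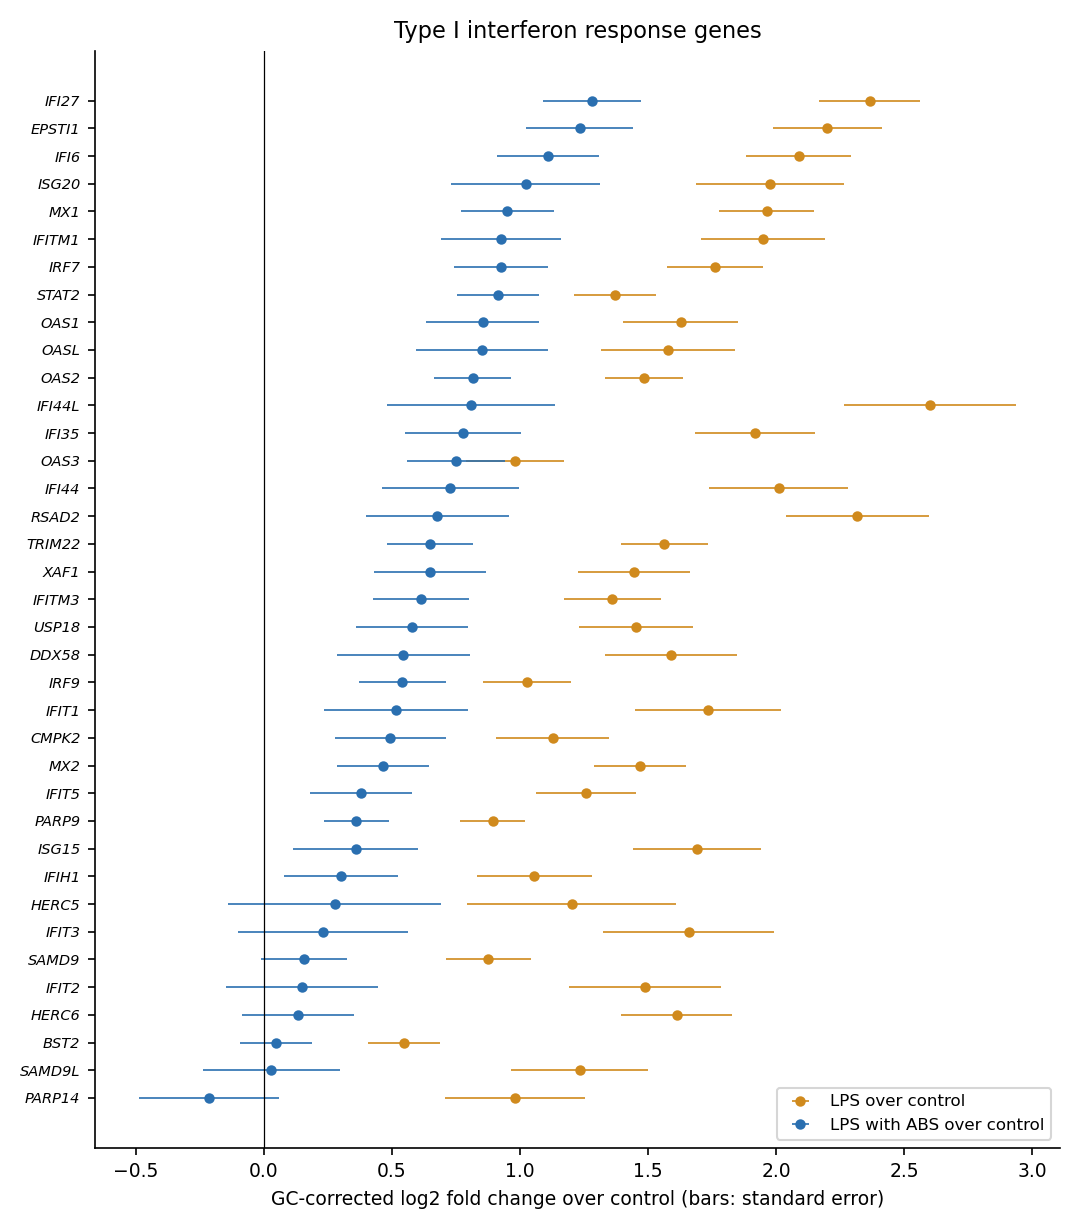
GC-corrected log2 fold change over control of 37 of the 38 interferon list genes, with standard errors, for LPS (orange) and for LPS with ABS (blue), in order of the latter. The blue points run from below 0 to 1.28 and each lies to the left of the orange point of its gene.

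The windows of IFI27, IFI6 and IFI44L are printed because the first 2 rose and the third did not, while all 3 hold the core of the interferon-stimulated response element, searched as GAAA, any 2 bases and GAAA. Searched on both strands of the 250 bases before the start, that motif was found in 21 of 30 members with a window (70.0%), against 3.44% of the 10615 windows of genes tested and 3.02% of all windows. The list was drawn up around the interferon response, so a higher share may be built into it. The share does not show what acted on these genes here. The windows lie at chr14:94110486-94110735 (plus strand), chr1:27672193-27672442 (minus strand) and chr1:78620198-78620447 (plus strand), from RefSeq (GRCh38.p14), with the matches in capitals.
IFI27: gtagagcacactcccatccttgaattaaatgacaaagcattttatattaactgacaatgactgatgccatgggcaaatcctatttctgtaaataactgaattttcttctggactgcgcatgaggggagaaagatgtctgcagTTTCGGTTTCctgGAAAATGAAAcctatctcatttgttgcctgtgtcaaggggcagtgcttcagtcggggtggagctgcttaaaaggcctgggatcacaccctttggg
IFI6: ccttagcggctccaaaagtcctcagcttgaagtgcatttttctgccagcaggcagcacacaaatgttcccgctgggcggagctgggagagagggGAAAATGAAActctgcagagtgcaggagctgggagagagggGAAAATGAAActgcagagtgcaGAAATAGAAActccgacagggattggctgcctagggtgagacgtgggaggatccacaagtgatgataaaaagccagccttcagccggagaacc
IFI44L: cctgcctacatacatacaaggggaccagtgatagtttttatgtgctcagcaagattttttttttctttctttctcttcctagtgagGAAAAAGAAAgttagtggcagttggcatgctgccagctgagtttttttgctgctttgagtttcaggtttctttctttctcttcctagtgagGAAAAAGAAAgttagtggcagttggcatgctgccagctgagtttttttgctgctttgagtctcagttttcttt
IFI27 and IFI44L held 2 matches each and IFI6 held 3.

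Of 19 inflammatory cytokines and chemokines tested, 4 rose and 0 fell, against 4.86% of all genes called higher and 3.63% lower, with medians of 0.49 and 0.56. IL1B, the secreted pyrogen cut by the inflammasome, stood at 37.5, 37.6 and 50.8 CPM in control, at 12, 12.1 and 13.8 with LPS and at 85.4, 50.7 and 70.6 with LPS and ABS. It was thus below control in every LPS library, and above LPS in every library given ABS as well. LPS_ABS 2 fell short of control 3 before the correction, and the log2 fold change over control was 0.72 ± 0.19 uncorrected and 0.92 ± 0.18 GC-corrected (adjusted p = 0.0137 and 0.00654). Over LPS the corrected value was 2.61 ± 0.19 (adjusted p = 5.10e-05). The call over control was not made in both fits without control 1 or control 2 (largest adjusted p 0.0646). IL23A, the subunit particular to IL-23, went from 3.24, 3.38 and 2.53 in control to 23.4, 18.3 and 9.22, with 8.44, 5.64 and 6.56 under LPS (2.47 ± 0.31 uncorrected and 2.37 ± 0.32 GC-corrected, adjusted p = 0.000474 and 0.000697). CCL2, the chemokine that recruits monocytes, went from 12.6, 11.2 and 14 to 50.7, 30.7 and 21.1 (1.44 ± 0.30 uncorrected and 1.97 ± 0.27 GC-corrected, adjusted p = 0.00477 and 0.000822), against its low transcript GC of 41.0%. CCL2 lay at 16.2, 14.7 and 28.2 CPM with LPS alone. CSF1, the macrophage growth factor, went from 6.23, 5.11 and 7.01 to 13.8, 16 and 9.94 (1.11 and 0.74), but was not called in both fits without control 1, control 2, control 3, LPS_ABS 1 or LPS_ABS 2 (largest adjusted p 0.198).

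TNF was not called. It stood at 49.5, 44.6 and 43.3 CPM in control, 53.5, 47.2 and 103 with LPS and 131, 82.1 and 29.7 with LPS and ABS, so LPS_ABS 1 was the highest of the 9 libraries and LPS_ABS 3 the lowest (0.82 ± 0.41 uncorrected and 0.56 ± 0.40 GC-corrected, adjusted p = 0.134 and 0.392). Without LPS_ABS 3 it was called in both fits, at 1.21 ± 0.29 and 0.96 ± 0.27 (adjusted p = 0.00873 and 0.0249), and without LPS_ABS 1 the corrected value was 0.02. CXCL8, the neutrophil chemokine, has a transcript of 33.4% GC and was called only after the correction (0.45 ± 0.30 uncorrected and 1.16 ± 0.18 GC-corrected, adjusted p = 0.255 and 0.00148). IL1RN, the antagonist of the IL-1 receptor, gave 0.32 ± 0.17 uncorrected and 0.26 ± 0.17 GC-corrected (adjusted p = 0.156 and 0.345). IL6 and IL10 had at most 14 and 4 counts in any library and were not tested. Without LPS_ABS 3 the list held 7 risers in place of 4, and without control 1 or control 2 it held 2.

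Among NF-kB subunits and feedback regulators 2 of 21 rose, ICAM1 and NFKB2, and 0 fell, against 4.86% and 3.63% of all genes (medians 0.28 and 0.21). ICAM1, an adhesion molecule induced by NF-kB, went from 96.9, 85.1 and 101 to 275, 213 and 175 (1.23 ± 0.22 uncorrected and 0.89 ± 0.19 GC-corrected, adjusted p = 0.00241 and 0.0114), and NFKB2 from 138, 135 and 143 to 329.8, 274 and 231 (1.0 ± 0.23 uncorrected and 0.60 ± 0.17 GC-corrected, adjusted p = 0.00665 and 0.0374). ICAM1 was not called in both fits without control 2 (largest adjusted p 0.0580), and NFKB2 not without control 1, control 2, control 3, LPS_ABS 1 or LPS_ABS 2 (largest adjusted p 0.126). Without LPS_ABS 3 the list held 4 risers, and without control 2 it held 0. NFKBIA, the inhibitor that NF-kB induces against itself, was not called (0.49 ± 0.19 uncorrected and 0.27 ± 0.19 GC-corrected, adjusted p = 0.0668 and 0.373). Of 24 genes of Toll-like receptor signalling, CD14 alone rose. CD14 went from 18.4, 16.4 and 17.8 CPM in control to 73.7, 43.9 and 47.8, with 27.3, 31.4 and 35.2 under LPS, and its groups were apart (1.65 ± 0.19 uncorrected and 1.29 ± 0.16 GC-corrected, adjusted p = 0.000302 and 0.000429).

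Markers used to label macrophage states were read against the same backgrounds, 4.86% higher and 3.63% lower. Of 14 M1-type markers 2 rose, IL1B and IRF1, and 0 fell. IRF1 gave 0.72 and 0.49 but was not called in both fits without control 1, control 2, control 3, LPS_ABS 1 or LPS_ABS 2 (largest adjusted p 0.119). Of 13 M2-type markers CD209 and FN1 rose and F13A1 fell. CD209, a C-type lectin of pathogen recognition, went from 43, 46.5 and 42.9 to 97.8, 102 and 73.6 (1.05 ± 0.14 uncorrected and 0.94 ± 0.15 GC-corrected, adjusted p = 0.000752 and 0.00184). F13A1, the A subunit of coagulation factor XIII, went from 24.1, 23.8 and 21.9 to 10.3, 14.3 and 14.3 (-0.84 ± 0.17 uncorrected and -0.71 ± 0.14 GC-corrected, adjusted p = 0.00352 and 0.00768). FN1, fibronectin, stayed at or below 3.83 CPM (0.96 and 0.86) and was not called in both fits without control 1, control 2, control 3, LPS_ABS 2 or LPS_ABS 3 (largest adjusted p 0.155). CD163, the haemoglobin scavenger receptor, was at most 2.18 CPM and not called (0.82 ± 0.60 uncorrected and 0.97 ± 0.58 GC-corrected, adjusted p = 0.296 and 0.291). CD86 had at most 26 counts in any library and was not tested, and MRC1 and ARG1 were not analysed here.

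Of 19 anti-inflammatory mediators 8 rose and 0 fell, against 4.86% of all genes called higher and 3.63% lower, with medians of 0.58 and 0.34. Of these, NLRP12, TSC22D3, KLF2 and LILRB4 were called in every run without 1 library, and the list held 4 risers without control 2, control 3 or LPS_ABS 2 and 5 without control 1. With LPS alone 6 of the 19 rose in both fits and 1 fell (backgrounds 7.7% and 6.92%). Set directly against LPS, 1 was higher and 0 were lower in both fits (backgrounds 3.01% and 2.93%). TSC22D3, the glucocorticoid-induced leucine zipper, went from 38, 31.3 and 28.6 to 147, 178 and 79.8, with 158, 159 and 163 under LPS (2.05 ± 0.24 uncorrected and 1.84 ± 0.24 GC-corrected, adjusted p = 0.000288 and 0.000514). KLF2, a factor that opposes NF-kB in myeloid cells, went from 6.9, 6.05 and 3.99 to 36.4, 41.5 and 15.8 (2.47 ± 0.35 uncorrected and 2.05 ± 0.32 GC-corrected, adjusted p = 0.000872 and 0.00152). LILRB4, an inhibitory receptor, went from 164, 169.5 and 151 to 264, 256 and 214 (0.60 and 0.69). NR4A1 gave 1.99 and 1.62 but was not called in both fits without control 2, control 3 or LPS_ABS 2 (largest adjusted p 0.0877). TGFB1 was not called (0.33 ± 0.14 uncorrected and -0.08 ± 0.10 GC-corrected, adjusted p = 0.0885 and 0.662), and SOCS3 was called only before the correction (0.93 and 0.54). Among 14 inflammasome and pyroptosis genes 4 rose, against the same 4.86%: NLRP12, P2RX7, TXNIP and NLRP3. P2RX7, the ATP-gated channel upstream of NLRP3, ran at 10.5, 9.48 and 8.51 in control, 42.6, 38.3 and 52.9 with LPS and 25.5, 24.5 and 19 with LPS and ABS (1.27 ± 0.17 uncorrected and 1.34 ± 0.18 GC-corrected, adjusted p = 0.000647 and 0.000743). TXNIP, the thioredoxin-interacting protein, stood at 193, 179.8 and 179 in control, 728, 695 and 666 with LPS and 348, 470.1 and 219.7 with LPS and ABS (0.91 ± 0.20 uncorrected and 1.28 ± 0.22 GC-corrected, adjusted p = 0.00628 and 0.00292). NLRP3 gave 0.44 and 0.37 and was not called in both fits without control 1, control 2, control 3 or LPS_ABS 2 (largest adjusted p 0.108).

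Immediate early and ERK feedback genes included 12 risers of 30 and 0 fallers, against 4.86% and 3.63% of all genes, with medians of 0.60 and 0.58. EGR1, a zinc finger factor induced within minutes by ERK, stood at 8.84, 9.92 and 13.8 CPM in control, 9.03, 8.44 and 7.95 with LPS and 27.9, 41.6 and 29.3 with LPS and ABS. The treated libraries lay above both other groups (1.60 ± 0.20 uncorrected and 1.31 ± 0.20 GC-corrected, adjusted p = 0.000514 and 0.00149), and the corrected value over LPS was 1.65 ± 0.20 (adjusted p = 0.00184). ETV5, an ETS factor downstream of ERK, went from 18.5, 17 and 22.7 to 39.5, 59 and 38.9 (1.24 ± 0.19 uncorrected and 1.25 ± 0.18 GC-corrected, adjusted p = 0.00107 and 0.00102). KLF6 and FOSL2 gave 0.55 and 0.73, and 0.85 and 0.62. EGR1, ETV5, KLF6, FOSL2 and ATF3 were the 5 members called in every run without 1 library, and the list held 5 risers without control 2 or LPS_ABS 2, 6 without control 3 and 7 without control 1. Of 19 matrix proteases and inhibitors 4 rose, against the same 4.86%. MMP9, a gelatinase secreted by macrophages, stood at 16.9, 17.8 and 23.4 in control, 12, 18.5 and 14.4 with LPS and 54.1, 34.3 and 58.9 with LPS and ABS (1.34 ± 0.22 uncorrected and 0.94 ± 0.18 GC-corrected, adjusted p = 0.00173 and 0.00624), and MMP9 was the member called in every such run. MMP14, MMP25 and TIMP3 gave corrected values of 0.45, 0.69 and 1.14, and the count was 1 without control 1, control 2 or LPS_ABS 2.

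Of 25 monocyte and macrophage identity genes 6 rose and 0 fell, against 4.86% and 3.63% of all genes (medians 0.44 and 0.31). The list held 3 risers without control 1, control 2, control 3 or LPS_ABS 2. Besides CD14 and CEBPB they included CST3, FCGR2A and LYZ. CST3, cystatin C, went from 297, 288 and 247 to 455, 413 and 351 CPM (0.55 ± 0.13 uncorrected and 0.74 ± 0.14 GC-corrected, adjusted p = 0.00747 and 0.00639). LYZ, lysozyme, went from 162, 168 and 156 to 215, 194 and 235, with 178, 162 and 122 under LPS (0.41 ± 0.14 uncorrected and 0.94 ± 0.13 GC-corrected, adjusted p = 0.0452 and 0.00102), but its uncorrected call was lost in each run without 1 library (largest adjusted p 0.124). FCGR2A, an activating Fc receptor, gave 0.47 and 0.67 and was not called in both fits without control 1, control 2, control 3 or LPS_ABS 2 (largest adjusted p 0.0852). Of 12 genes of prostaglandin and leukotriene synthesis 2 rose, 2 fell and 8 were not called in both fits, against the same 4.86% and 3.63%. ALOX5 (5-lipoxygenase) rose from 4.79, 3.8 and 4.18 to 13.1, 12.5 and 11, with 14.2, 19.4 and 20.5 under LPS (1.52 ± 0.19 uncorrected and 1.21 ± 0.16 GC-corrected, adjusted p = 0.000448 and 0.000480), and ALOX5AP, its activating protein, gave 0.64 and 0.68. PLA2G4A, the phospholipase that frees arachidonate, and LTA4H, which makes leukotriene B4, fell (-1.52 and -0.90, and -0.74 and -0.41). Of the 4, ALOX5 was called in every run without 1 library, and the others were not called in both fits without control 1, control 2 or LPS_ABS 2.

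**Figure D4:**
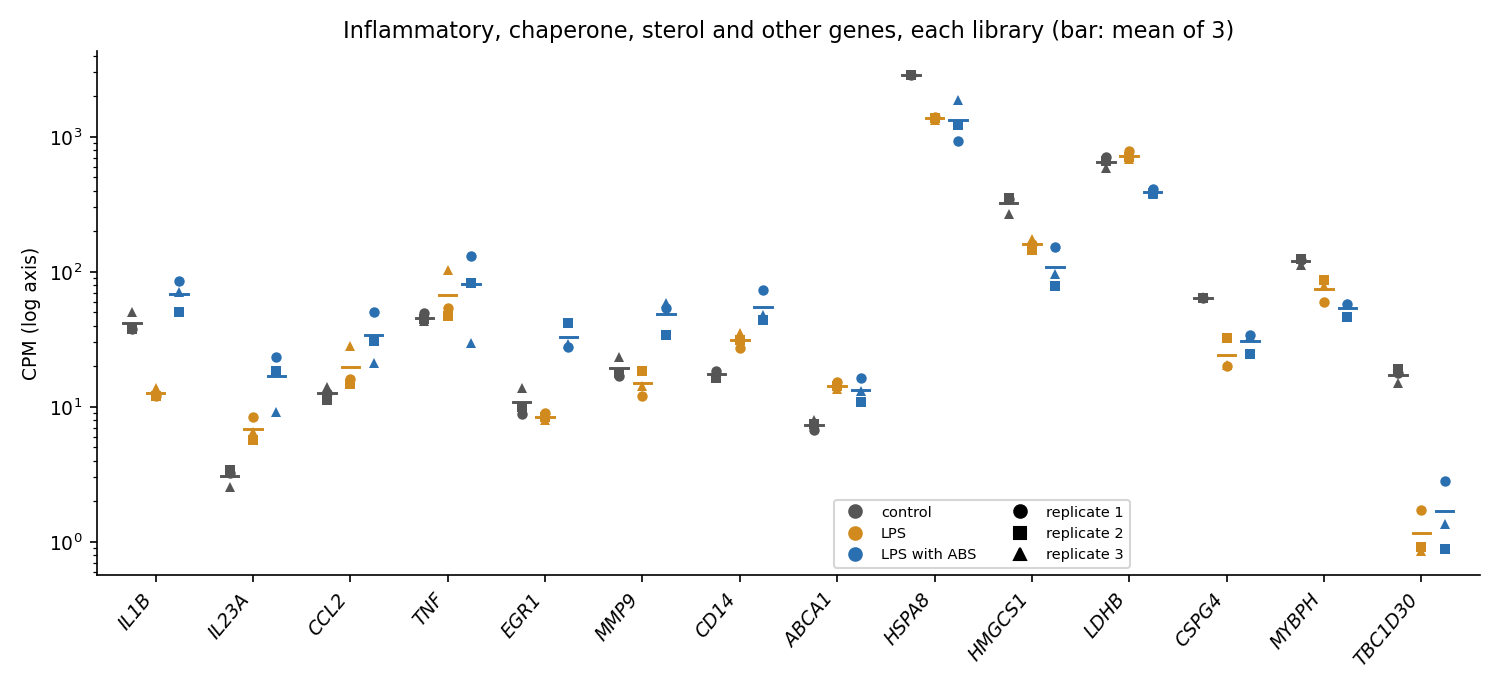
CPM on a log axis of 14 genes in each of the 9 libraries, coloured by group and shaped by replicate number, with a bar at each group's mean. TNF spreads from 29.7 to 131 CPM among the libraries given LPS with ABS, IL1B and EGR1 stand above their LPS libraries, and HSPA8, HMGCS1, CSPG4, MYBPH and TBC1D30 lie below control in both treated groups.

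Of 26 genes of apoptotic cell uptake RAC1 rose and PROS1 fell, with medians of 0.38 and 0.22, and 1 call in each direction is near the background (4.86% higher, 3.63% lower). PROS1, protein S, bridges phosphatidylserine to the TAM receptors. It stood at 28.3, 27.5 and 26 CPM in control, 26, 24.8 and 25.6 with LPS and 14.7, 11.3 and 10.2 with LPS and ABS, lower than both other groups (-1.18 ± 0.15 uncorrected and -0.59 ± 0.11 GC-corrected, adjusted p = 0.000574 and 0.00535). RAC1, the GTPase that drives engulfment, gave 0.38 and 0.67 and was not called in both fits without control 1, control 2 or LPS_ABS 2 (largest adjusted p 0.0904). MERTK, a TAM receptor, stood at 1.65, 0.828 and 1.33 CPM in control and 2.18, 2.67 and 3.27 with LPS and ABS, and was called only before the correction (1.09 ± 0.36 uncorrected and 1.12 ± 0.35 GC-corrected, adjusted p = 0.0367 and 0.0531). Lysosomal genes held 7 risers of 37 and 0 fallers, against the same shares (medians 0.39 and 0.18), where the uncorrected fit had called 18 higher. With LPS alone 9 of the 37 rose in both fits and 0 fell (backgrounds 7.7% and 6.92%). Set directly against LPS, 0 were higher and 1 was lower in both fits (backgrounds 3.01% and 2.93%). GLB1, the lysosomal beta-galactosidase, went from 106, 109 and 105 to 184, 191 and 160.0 (0.75 ± 0.12 uncorrected and 0.59 ± 0.12 GC-corrected, adjusted p = 0.00151 and 0.00679) and was the member called in every run without 1 library. CTSB, MAN2B1, ATP6V1H and NPC1 gave corrected values of 0.41, 0.36, 0.45 and 0.50. The count of lysosomal risers was 1 without control 1, control 2 or LPS_ABS 2 and 2 without control 3.

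Sterol genes were described as 2 lists. Of 16 LXR targets and genes of cholesterol efflux 4 rose and 0 fell, against 4.86% and 3.63% of all genes. With LPS alone 5 of the 16 rose in both fits and 0 fell (backgrounds 7.7% and 6.92%). Set directly against LPS, 0 were higher and 0 lower in both fits (backgrounds 3.01% and 2.93%). ABCA1, which hands cholesterol to apolipoprotein A-I, stood at 6.74, 7.43 and 7.97 CPM in control, 15.2, 14.3 and 13.6 with LPS and 16.4, 10.8 and 13.1 with LPS and ABS (0.86 ± 0.18 uncorrected and 1.08 ± 0.16 GC-corrected, adjusted p = 0.00414 and 0.00139), and it was the member called in every run without 1 library. The list held 1 riser without control 1 or LPS_ABS 2 and 2 without control 2. SREBF1, the factor of fatty acid synthesis, gave 1.09 and 0.68. ABCG1 was at most 1.08 CPM (2.52 and 2.28). Of 26 genes of cholesterol synthesis 6 fell and 0 rose (medians -0.22 and -0.25), and 15 fell with LPS alone (background 6.92%). HMGCS1, a synthase early in the pathway, stood at 347, 351 and 267 in control, 160.0, 145 and 175 with LPS and 153, 78.4 and 97.1 with LPS and ABS (-1.56 ± 0.21 uncorrected and -0.97 ± 0.16 GC-corrected, adjusted p = 0.000673 and 0.00219). IDI1, the isopentenyl diphosphate isomerase, went from 154, 149 and 114 to 69.2, 59.8 and 49.1 (-1.23 ± 0.16 uncorrected and -0.67 ± 0.13 GC-corrected, adjusted p = 0.000562 and 0.00509). SQLE and NSDHL gave -0.50 and -0.37, and -0.32 and -0.42, and the count of fallers was 2 without control 1, 2 without control 2 and 3 without LPS_ABS 2.

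In glucose metabolism 2 of 24 genes rose and 3 fell, against 4.86% and 3.63% of all genes. SLC2A3, the glucose transporter GLUT3, went from 11.1, 11 and 10.2 to 31.5, 32.9 and 18.2 (1.35 ± 0.21 uncorrected and 1.56 ± 0.22 GC-corrected, adjusted p = 0.00112 and 0.000854). HK3, a hexokinase of myeloid cells, gave 1.08 and 0.69 and was not called in both fits without control 1, control 2, control 3 or LPS_ABS 2 (largest adjusted p 0.116). LDHB, a lactate dehydrogenase subunit, stood at 713, 657 and 584 in control, 779, 707 and 685 with LPS and 409, 384 and 375 with LPS and ABS, below both other groups in every library (-0.74 ± 0.11 uncorrected and -0.60 ± 0.12 GC-corrected, adjusted p = 0.00105 and 0.00704). It was not called in both fits without control 1 (largest adjusted p 0.0522). ALDOC gave -0.71 and -1.05, not called in both fits without control 1, control 2, LPS_ABS 2 or LPS_ABS 3 (largest adjusted p 0.107). In the NRF2 list 3 of 22 rose, and 1 of these 3 under scaling by total counts. SLC7A11, the cystine importer, has 35.4% GC and stood at 41.3, 37.6 and 38.4 in control, 134, 107 and 139 with LPS and 151, 65.2 and 32.2 with LPS and ABS. LPS_ABS 3 lay below every control (1.08 ± 0.38 uncorrected and 1.69 ± 0.25 GC-corrected, adjusted p = 0.0459 and 0.00117), and the uncorrected call was lost without control 1, control 2, control 3, LPS_ABS 1 or LPS_ABS 2 (largest adjusted p 0.313). ME1 and MAFG gave 0.42 and 1.08, and 0.97 and 0.62. The list held 0 risers without control 1, control 2 or LPS_ABS 2 and 1 without control 3.

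Of the lists with at least 10 tested members, heat shock chaperones held the largest share of fallers. Of 15 cytosolic and mitochondrial chaperone genes 7 fell and 0 rose, against a background of 3.63% called lower, with medians of -0.59 and -0.60, and 8 fell with LPS alone (background 6.92%). HSPA8, the constitutive Hsc70, stood at 2852, 2875 and 2889 CPM in control, 1405, 1377 and 1331 with LPS and 928, 1213 and 1867 with LPS and ABS. The 3 controls were close together, and each treated library lay below them (-1.10 ± 0.19 uncorrected and -1.02 ± 0.16 GC-corrected, adjusted p = 0.00190 and 0.00168). HSPD1, the mitochondrial chaperonin, went from 527, 494 and 519 to 284, 234 and 291 (-0.93 ± 0.12 uncorrected and -0.61 ± 0.10 GC-corrected, adjusted p = 0.000502 and 0.00234), and HSP90AA1 from 875, 725 and 544 to 347, 247 and 349.8 (-1.18 ± 0.17 uncorrected and -0.96 ± 0.17 GC-corrected, adjusted p = 0.00103 and 0.00358). HSPE1, the partner of HSPD1, gave -0.59 and -0.68, and HSPA4L -1.43 and -0.75. The 3 called in every run without 1 library were HSPA8, HSPD1 and HSP90AA1, and 3 were called without control 1. By CPM LPS_ABS 3 was lowest of its group in 1 of the 15 members and highest in 12, and after the GC correction lowest in 2 and highest in 8. Over all 12970 genes it was highest in 4593 by CPM and in 4849 after the correction. HSPA1A and HSPA1B are near-identical and their counts cannot be separated with certainty.

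In the list of endoplasmic reticulum chaperones and stress genes 2 of 22 rose and 2 fell, against 4.86% and 3.63% of all genes (medians -0.07 and -0.06). HERPUD1, of ER-associated degradation, went from 51.9, 47.3 and 47.4 to 131, 165 and 103 (1.44 ± 0.16 uncorrected and 1.5 ± 0.17 GC-corrected, adjusted p = 0.000274 and 0.000251), and XBP1, the factor spliced by IRE1, from 150.1, 140.1 and 151 to 491, 529 and 323 (1.61 ± 0.16 uncorrected and 1.54 ± 0.18 GC-corrected, adjusted p = 0.000218 and 0.000251). Both were called in every run without 1 library. MANF and HSP90B1 fell (-0.49 and -0.77, and -0.93 and -0.47), MANF not in both fits without control 1, control 2, control 3, LPS_ABS 1 or LPS_ABS 2 (largest adjusted p 0.116) and HSP90B1 not without control 1 or LPS_ABS 2 (largest adjusted p 0.0665). Of 30 apoptosis and p53 target genes 4 rose, against the same 4.86%, namely BBC3, TNFRSF10B, GDF15 and GADD45A. BBC3, which encodes the death-promoting protein PUMA, went from 8.13, 8.01 and 7.38 to 29.8, 23.5 and 16 (1.56 ± 0.23 uncorrected and 1.11 ± 0.18 GC-corrected, adjusted p = 0.000944 and 0.00208). TNFRSF10B, a receptor for the ligand TRAIL, went from 30.8, 33.4 and 31.9 to 57.7, 58.3 and 48.4 (0.77 and 0.70). Without LPS_ABS 3 the list held 7 risers. GADD45A gave 0.72 and 0.57 and was not called in both fits without control 1, control 2, control 3, LPS_ABS 1 or LPS_ABS 2 (largest adjusted p 0.182).

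Of 36 genes of DNA replication and the cell cycle 2 rose and 3 fell, against backgrounds of 4.86% and 3.63%. CCNE2, a cyclin of entry into S phase, went from 41.8, 35.3 and 36.1 to 19.8, 11.9 and 11.3 (-1.40 ± 0.23 uncorrected and -0.70 ± 0.14 GC-corrected, adjusted p = 0.00177 and 0.00768) and was called in every run without 1 library. RRM1 and BUB1 fell (-0.88 and -0.46, and -0.82 and -0.36), and CDKN2D and CDT1 rose (1.17 and 0.78, and 0.91 and 0.49); none of these 4 was called in both fits without control 1 or without LPS_ABS 2. Of 48 nuclear genes of oxidative phosphorylation 3 fell and 0 rose, against 3.63% and 4.86% of all genes (medians 0.02 and -0.01): UQCRC2, ATP5PO and NDUFA6, at corrected values of -0.36, -0.43 and -0.36. The background of genes called lower was 3.63%, and the counts of this paragraph in the ribosomal and proteasome lists lie near it. Of 81 cytoplasmic ribosomal protein genes 4 fell, RPS12, RPS25, RPL6 and RPL24, at -0.51, -0.51, -0.45 and -0.42, where the uncorrected fit alone had called 21 lower. Of 77 mitochondrial ribosomal protein genes MRPL3 and MRPS17 fell, and of 37 proteasome genes PSMC1 and PSMD1 fell. None of these 11 fallers was called in both fits without control 1 or without control 2. Without LPS_ABS 3 the mitochondrial ribosomal list held 6 fallers. PSMC1, an ATPase subunit, stood at 133, 131 and 122 in control, 160.1, 147 and 143 with LPS and 103, 84.8 and 93.6 with LPS and ABS, below both (-0.46 and -0.46), but was not called in both fits without control 1, control 2 or LPS_ABS 2 (largest adjusted p 0.121).

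Zinc finger genes showed how far a family of low GC followed the trend. Of 433 tested, with a median transcript GC of 43.4%, the uncorrected fit called 38 higher and 114 lower, and both fits called 12 higher and 16 lower, against backgrounds of 4.86% and 3.63%. The family's median went from -0.38 to -0.08. ZNF664 stood at 51.1, 51.9 and 52.2 CPM in control, 47.1, 44.6 and 48.7 with LPS and 29.5, 20.7 and 28.6 with LPS and ABS, lower than both other groups (-0.98 ± 0.15 uncorrected and -0.94 ± 0.14 GC-corrected, adjusted p = 0.00105 and 0.00113). ZNF821 went from 10.4, 9.34 and 7.95 to 36.4, 30.4 and 21.8 (1.68 and 1.3), ZNF419 from 5.66, 6.67 and 5.44 to 13.3, 12.7 and 9.52 (1.0 and 1.42) and ZNF773 from 7.72, 8.49 and 4.8 to 15.1, 13.9 and 12.5 (0.98 and 1.36). ZNF655 gave 0.71 and 1.3 and was not called in both fits without control 1 or LPS_ABS 2 (largest adjusted p 0.0685). The number of falling zinc finger genes was 40 without LPS_ABS 1, 26 without LPS_ABS 3, 9 without control 3, 6 without control 1 or control 2 and 5 without LPS_ABS 2. That of risers was 4 without control 1 or LPS_ABS 2 and 5 without control 2.

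Solute carriers, the largest family of transporters, held 20 risers and 6 fallers of 207 tested, against 4.86% and 3.63% of all genes, with 17 of the 26 called in every run without 1 library. The family held 11 fallers without LPS_ABS 1 and 3 without LPS_ABS 2 or any 1 control. Beside the amino acid carriers above, SLC31A1, the copper importer, went from 52.8, 52.9 and 54.6 to 148, 137 and 94.9, with 198, 167 and 181 under LPS (1.25 ± 0.16 uncorrected and 1.59 ± 0.16 GC-corrected, adjusted p = 0.000498 and 9.66e-05). SLC22A15 went from 45.5, 44.6 and 39.6 to 61.1, 58.9 and 58.5 (0.46 and 0.99), not called in both fits without control 3 (largest adjusted p 0.0592). SLC39A10, a zinc importer, went from 20.7, 21.3 and 16.3 to 9.2, 5.52 and 6.25 (-1.48 ± 0.20 uncorrected and -0.78 ± 0.15 GC-corrected, adjusted p = 0.000752 and 0.00645) and was the sole faller among 9 metallothionein and zinc genes, of which 0 rose. Of 20 histone genes 2 rose. H2BC21 gave 0.80 and 0.85 and was not called in both fits without control 1, control 2, control 3, LPS_ABS 1 or LPS_ABS 2 (largest adjusted p 0.145). HMOX1, which degrades haem, was called before the correction only (0.81 ± 0.22 uncorrected and 0.45 ± 0.19 GC-corrected, adjusted p = 0.0153 and 0.135).

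Lists without a call in both fits by edgeR were MHC class I presentation (0 of 18 tested), MHC class II presentation (0 of 9) and collagen chains (0 of 22). At an unadjusted p under 0.05 in both fits they held 2, 2 and 1 genes, with DESeq2 1, 2 and 1, and with limma-voom 0, 0 and 1. The uncorrected fit had called 7 of the 18 MHC class I genes and 5 of the 22 collagen genes higher, with list medians of 0.34 and 0.39 that went to 0.21 and 0.08. Of the other-cell lists with tested members, 0 of 6 fibroblast, 0 of 3 B cell, 0 of 4 endothelial, 0 of 3 epithelial and 0 of 2 erythroid and platelet markers were called by edgeR in both fits. At an unadjusted p they held 0, 1, 0, 0 and 0, and DESeq2 and limma-voom called 0 in each.

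**Figure D5:**
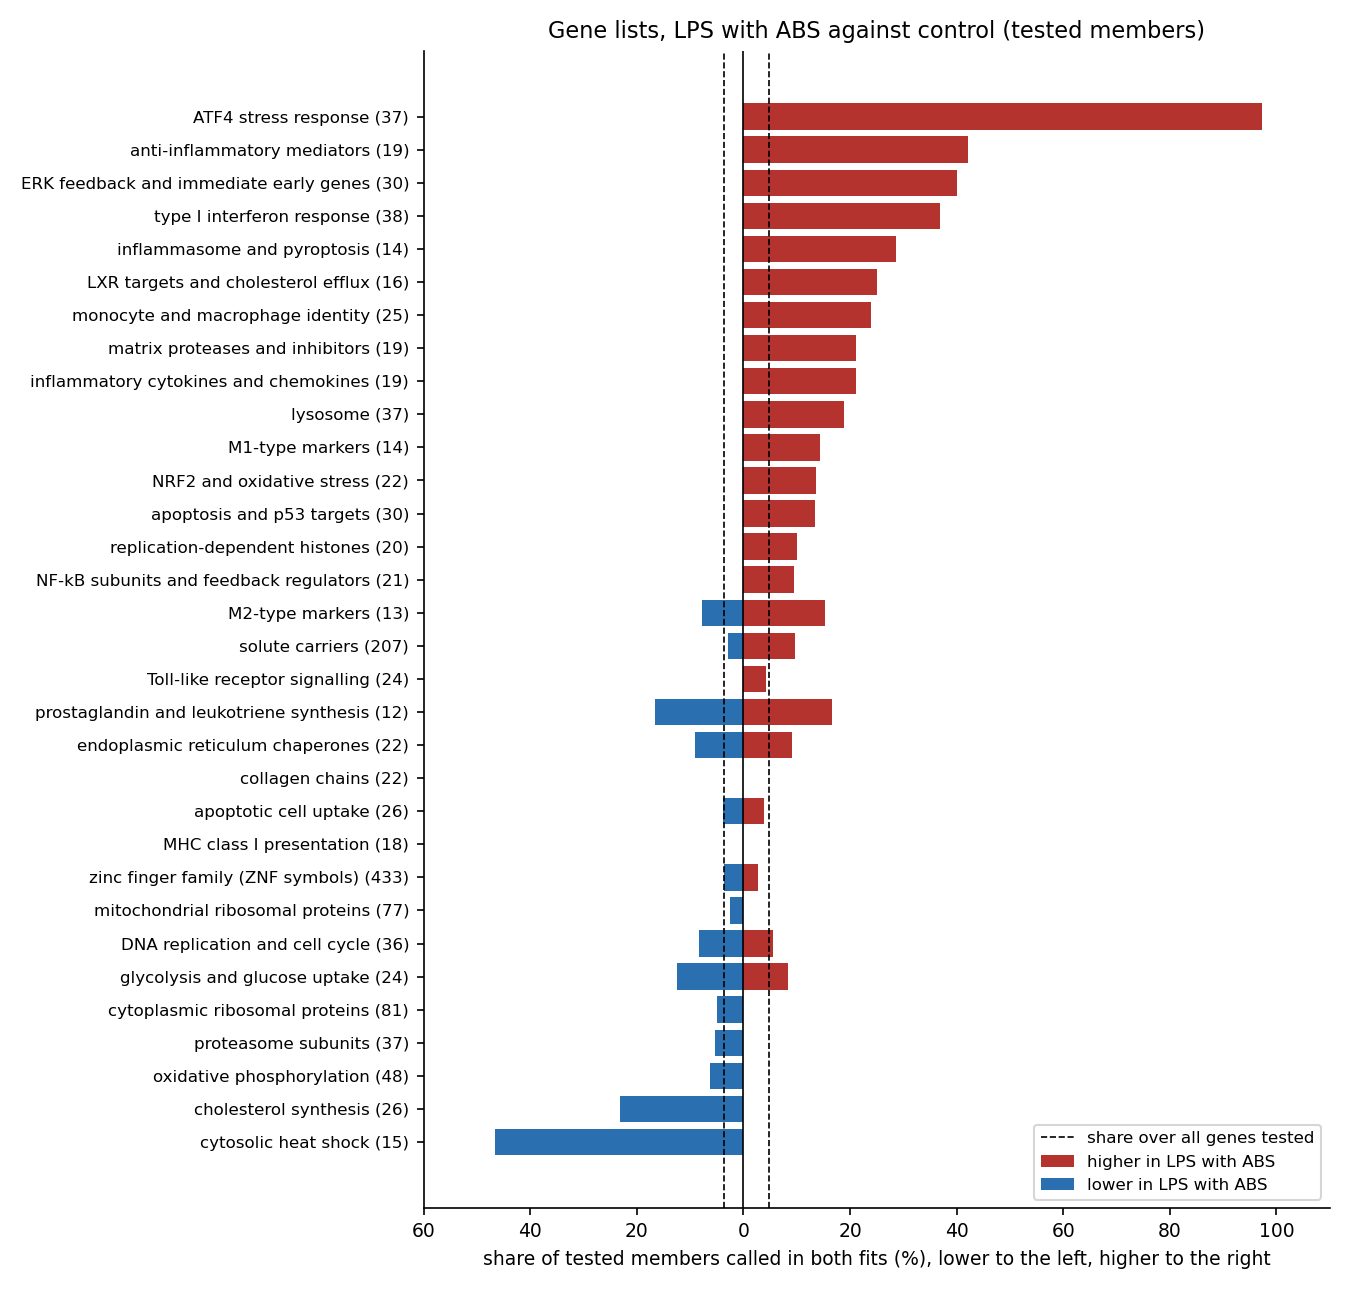
For each gene list with at least 10 tested members (number in brackets), the share of tested members called in both fits in percent, higher to the right and lower to the left of 0, with dashed lines at the shares over all genes (4.86 and 3.63). The ATF4 list stands out to the right with 36 of 37 and the heat shock list to the left with 7 of 15. The lists were chosen with earlier results of these data known.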

How the data were processed

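RNA-seq libraries were made from THP-1 cells in 3 groups of 3. Per the labels' protocols, total RNA was taken up in TRIzol and libraries were made with TruSeq Stranded mRNA LT or VAHTS Universal V5 kits; which libraries had which kit is not said. The submitters' processing notes name fastp, HISAT2, HTSeq, R 3.2.0 and DESeq2. No genome build, annotation or strand setting is stated in the labels, so reads of overlapping or antisense genes, and of near-identical copies, may be shared between them. The authors deposited raw counts per gene and FPKM values (counts scaled to gene length and library total, as the deposited values show). FPKM was used here only to check cell markers.

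Genes with enough counts were tested with edgeR 4.0.16 (filterByExpr, TMM, quasi-likelihood F-test, R 4.3.3) on all 9 libraries, which share 1 estimate of spread with 6 residual degrees of freedom. The GC-corrected fit added, as offsets, a lowess trend (span 0.3) of log counts on transcript GC per library, from GENCODE 29 transcripts. GC was matched for 16115 of 16222 genes (99.34%), and genes without it got no correction. No 2 libraries of a group agreed within sampling noise. The code was tested on simulated data. Total counts were 38506162 to 41679412 per library. Named genes were the 10 largest rises and falls called in both fits with groups apart and a mean of at least 100 counts in the higher group, up to 5 called members of each list by GC-corrected p, landmark genes, and up to 4 calls in each direction that ended with the correction or turned sign. The members and the gene lists were chosen with earlier results of these data known. Alternatives were other scalings, filters and tools, limma-voom (limma 3.58.1), DESeq2 1.42.0, other GC settings, a replicate block and leaving out each library. A few members of the lists are counted but not reported here by name.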

Additional observations from a re-analysis of the deposited data

How the results depend on the processing

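Leaving out 1 library moved the number of genes called most, to between 2351 and 4679 uncorrected, 586 and 2619 GC-corrected and 413 and 1763 in both fits. With only the 6 control and LPS_ABS libraries in the fit, 1079 genes were called after GC correction and 728 in both fits. The cause of these shifts was not tested, beyond the fewer libraries that estimate the spread. Other scalings, no filter, DESeq2, limma-voom, a wider GC trend and an added length trend kept each of the 3 counts within 1.5 times, with DESeq2 the highest at 5183, 2341 and 1513. Scaling by upper quartile put 37.2% and by total counts 26.7% of the uncorrected calls higher, against 43.8% with TMM. The GC-corrected count could hardly move with the scaling, because the trend removed from each library also holds its overall level. Of 4480 recomputed fold changes of 160 genes, the tested ones among those named by rule and 12 picked after their values were seen, 376 lost their call, 39 gained one and 22 turned sign, all of those 22 in values that had no call.

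With no filter the GC-corrected values were -0.02 for ABHD13, -0.04 for G2E3, -0.03 for ATG4C and -0.05 for LRRC40. With a length trend they were -0.02 for G2E3 and -0.01 for LRRC40, and with limma-voom 0.00 for LRRC40. Without 1 library they ran from -0.22 to 0.19 for ABHD13, -0.11 to 0.13 for G2E3, -0.10 to 0.19 for ATG4C and -0.18 to 0.12 for LRRC40. The uncorrected value of VLDLR was -0.02 by total counts and -0.02 to 0.17 without 1 library, and that of IFI44L ran from -0.59 without LPS_ABS 1 to 0.50 without LPS_ABS 2. TNRC18 was called after GC correction with no filter, a length trend or the replicate block (edgeR adjusted p = 0.0257, 0.028 and 0.0301). It was also called without control 3 or LPS_ABS 1, but not without any other library (largest adjusted p 0.196). TMPRSS9, GLYCTK, NT5M and MEIOC were called after correction by DESeq2, and by edgeR without LPS_ABS 3.

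Replicate numbers are shared between groups. Deviations of same-numbered control and LPS_ABS libraries correlated at 0.15, -0.01 and 0.17, and those of differently numbered ones at -0.17 to 0.05. These values do not settle whether the numbers mark pairs, and the main fits did not take them as pairs. With the replicate block 4573 genes were called uncorrected, 1750 GC-corrected and 1140 in both fits, and LRRC40 stood at 0.00.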
